A study of Homo sapiens with 47 samples.

Results

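The terminal HOX genes are the members of paralogue groups 12 and 13, and 6 of them were followed here through all 47 libraries of a human embryonic stem cell differentiation: *HOXA13*, *HOXB13*, *HOXC12*, *HOXC13*, *HOXD12* and *HOXD13*. They were chosen by name and are 6 of the 39 HOX genes and of the 58051 genes listed for each library. The starting cells were WA09 (H9), an established embryonic stem cell line, and every group derives from that single line. The t0 group is the undifferentiated line. The 36h group had received 36 h of the WNT agonist CHIR-99021 and FGF2 in medium without vitamin A, together with AGN193109, an inverse agonist of the retinoic acid receptors, and is labelled as neuromesodermal progenitor (NMP)-like cells. The P1 to P10 groups are the same cultures after 1 to 10 passages under WNT and FGF stimulation with retinoic acid signaling inhibited, and are labelled as pre-neural progenitors (PNPs) with neural crest (NC). At P5 and P8, selective detachment also gave an epithelial (EPI) and a mesenchymal (MES) fraction of each culture, which are enriched and not pure. There were 3 differentiations, r1 to r3, each carried through the whole course, so that 35 libraries are whole cultures (3 per time point, 2 at P9, where r3 was not analysed here) and 12 are fractions (3 per fraction and passage).

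HOX genes encode homeodomain transcription factors that give cells of the embryo their position along the body axis. They lie in 4 clusters, and their order along a cluster follows their order of activation and the position of their anterior border, so that the genes of the last groups are activated last and nearest the tail. In mouse embryos the group 13 proteins are known for limiting axis elongation, and *HOXA13* and *HOXD13* are also needed for the distal limb, the hindgut and the urogenital tract. *HOXB13* is expressed in the tail bud and in the prostate, and *HOXC13* is required for hair and nail keratin genes. The question addressed is when each of the 6 genes came on, in which order, and whether the order was the same between clusters, fractions and differentiations.

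On GRCh38 with GENCODE 29, *HOXA13* is on the minus strand at chr7:27193503-27200106, and the antisense transcript *HOTTIP* overlaps 1532 bases of it. *HOXB13* is on the minus strand at chr17:48724763-48729178, with *PRAC2* ending 4 bases away. *HOXC13* is on the plus strand at chr12:53938765-53946544 and *HOXC12* at chr12:53954834-53958956, 8289 bases downstream. *HOXC13-AS* overlaps 879 bases of *HOXC13*. *HOXD13* is on the plus strand at chr2:176092891-176095938 and *HOXD12* at chr2:176099730-176101193, 3791 bases downstream. All 6 are protein-coding genes. Whether the counting used the strand is not given in the sources used here, so reads over the parts that *HOXA13* shares with *HOTTIP* and *HOXC13* with *HOXC13-AS* cannot be assigned with certainty.

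Promoter sequence from RefSeq (GRCh38.p14) was found for 3 of the 6 members, which represent the HOXA and HOXD clusters, and is shown because *HOXD12* and *HOXD13* reached 10 TPM ahead of *HOXA13* in each differentiation. Each stretch runs 5′ to 3′ on the strand of the gene and ends at the base before the first start that either annotation gives. Capitals mark matches, on either strand, to CCAAT and to TATAAA.
*HOXA13*, chr7:27200107-27200341, minus strand: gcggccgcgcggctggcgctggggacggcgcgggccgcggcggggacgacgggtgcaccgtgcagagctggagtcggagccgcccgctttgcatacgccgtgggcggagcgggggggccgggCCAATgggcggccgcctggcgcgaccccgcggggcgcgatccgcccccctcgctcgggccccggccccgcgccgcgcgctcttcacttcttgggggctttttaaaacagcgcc
*HOXD12*, chr2:176099545-176099729, plus strand: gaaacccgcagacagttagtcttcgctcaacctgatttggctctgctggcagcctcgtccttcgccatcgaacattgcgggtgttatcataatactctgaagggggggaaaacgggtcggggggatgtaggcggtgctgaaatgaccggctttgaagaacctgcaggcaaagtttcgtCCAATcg
*HOXD13*, chr2:176092471-176092720, plus strand: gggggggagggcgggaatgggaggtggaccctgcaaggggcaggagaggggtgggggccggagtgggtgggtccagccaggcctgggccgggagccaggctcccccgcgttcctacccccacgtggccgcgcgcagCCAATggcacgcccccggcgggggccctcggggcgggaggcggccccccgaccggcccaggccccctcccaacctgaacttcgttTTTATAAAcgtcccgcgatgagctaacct
CCAAT was present once in each of the 3 stretches, starting 113, 7 and 114 bases before the end of the stretch in *HOXA13*, *HOXD12* and *HOXD13*. Of all 35116 promoter windows of 250 bases, 32% held it. The *HOXA13* and *HOXD12* stretches are shorter than these windows, at 235 and 185 bases, so for each motif the lengths compared differ. The TATA box motif was present in *HOXD13* alone, where it overlaps its own reverse match, and in 10.7% of all windows. TTTATG, a core of the type bound by CDX proteins, was in none of the 3 stretches and in 9.64% of all windows. Over the full 250 bases before the RefSeq start, the GC content was 78% in *HOXA13*, 74% in *HOXD13* and 53.2% in *HOXD12*, against a median of 58%. The number of CG dinucleotides was 40, 21 and 16, against a median of 11.

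The smallest library held 13029491 estimated counts and the largest 64082859, around a median of 47292229. TPM is the deposited level per transcript length, which allows genes to be compared, and a normalized count is the count after scaling between libraries, which was used for the comparisons of groups. Over all genes, the library labelled P10 r1 was most like P7 r2 (Pearson r = 0.979 across genes) and so went against the order of the passages. The library labelled P9 r1 was most like P10 r3, and its r of 0.946 was the lowest that any of the 47 libraries had with its nearest. The comparisons at P9 and P10 are also given without these 2 libraries. *POU5F1* and *NANOG*, which mark pluripotent cells, summed to 1662 to 1854 TPM at t0 and to 0.75 to 1.12 TPM at P5, and 12 genes of axial progenitors summed to 36.67 to 50.82 TPM at t0 and 552 to 1919 TPM at 36 h. The epithelial marker list (*SOX2*, *CDX2*, *NKX1-2*, *CDH1*, *EPCAM* and *FGFR2*) summed to 494.8 to 783.9 TPM in the P5 EPI libraries and 96.0 to 281.5 TPM in the P5 MES libraries, while the neural crest and mesenchymal list summed to 193.6 to 388.4 and 576.3 to 768.6 TPM. At P8 these sums overlapped between the fractions, with 213 to 732.5 TPM in EPI and 74.4 to 505.5 TPM in MES for the epithelial list. *SOX17*, *FOXA2* and *GATA4*, which are among the genes listed here for hindgut endoderm, had at most 3 counts in every library of P5, P8, P9 and P10. The 5 hindgut endoderm genes, which also include *CDH17* and *HNF4A*, summed to 0.41 to 0.82 TPM at P5, 1.7 to 2.29 TPM at P8, 0.15 to 0.17 TPM at P9 and 0.07 to 5.99 TPM at P10. At P9 and P10 *HNF4A* also had at most 3 counts in every library, which left only *CDH17* above that level.

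In the undifferentiated cells, none of the 6 genes rose above the floor of 3 counts used as the detection limit. *HOXB13* had 0 counts in all 3 t0 libraries, and *HOXA13* had 0, 1 and 2. *HOXC12* had 3, 1 and 1 counts at t0, and *HOXD12* had 3, 1 and 2. The highest TPM of any member at t0 was 0.10, for *HOXD12* in r1. After this, the members followed the course shown by the plot of TPM against time point, with 3 phases: a faint early signal, an onset between P4 and P7, and a late rearrangement at P9 and P10.

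**Figure D1:**
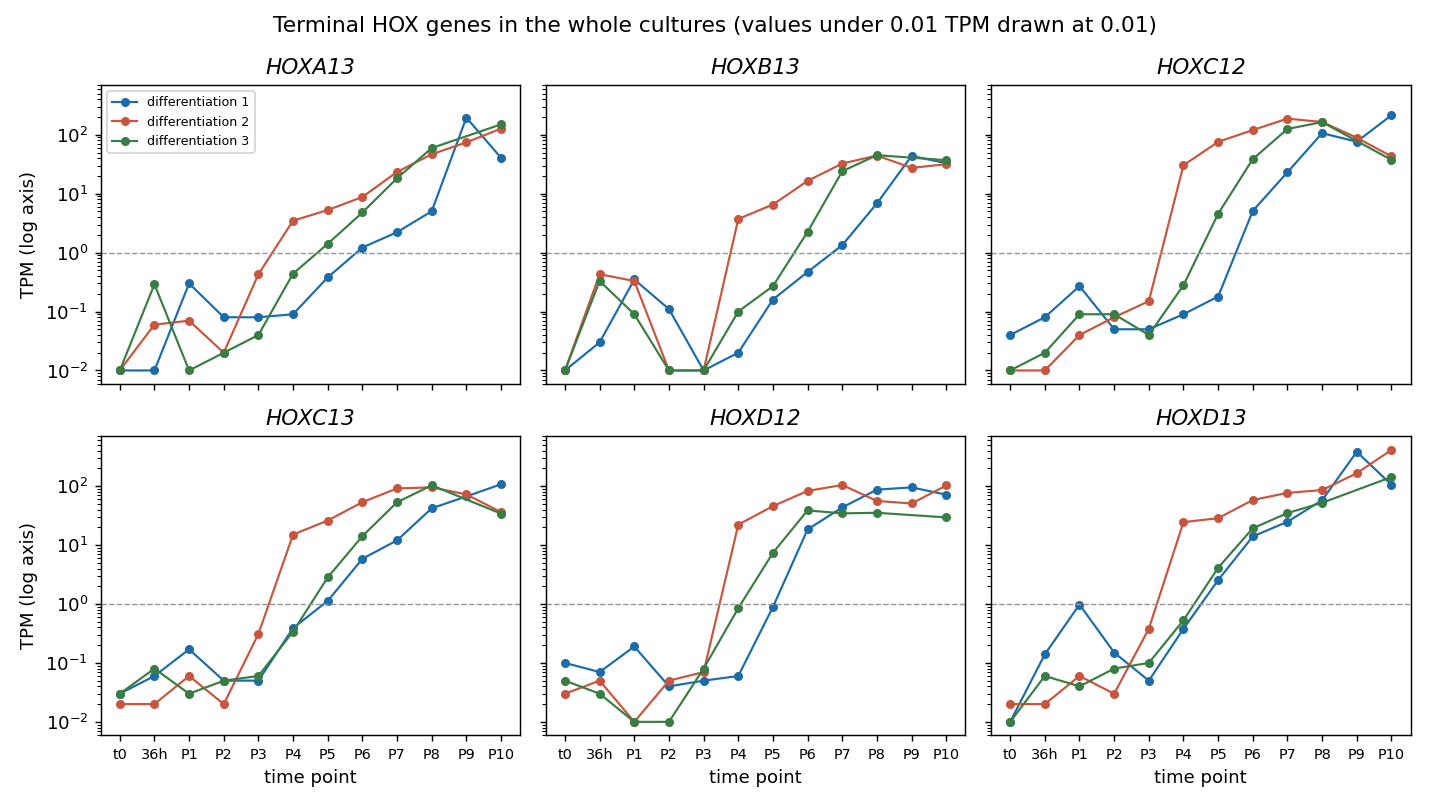
Level of each terminal HOX gene in the whole cultures, with the time point on the x axis and TPM on a log y axis, 1 line per differentiation. The dashed line marks 1 TPM. All 6 genes stayed under it until P3, crossed it first in differentiation 2, and diverged at P9 and P10.

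The early signal was seen at 36 h and P1. *HOXB13*, which lies far from the rest of its cluster, had 2, 35 and 36 counts at 36 h in r1 to r3, and 15, 24 and 10 at P1. These correspond to 0.03, 0.43 and 0.33 TPM at 36 h. By P3 it had 1, 0 and 1 counts. *HOXA13* had 45 counts at 36 h in r3 and 0 in r1, so that its 36 h libraries did not move together. *HOXD13* had 27 counts at P1 in r1 against 3 in each of the other 2 differentiations. A gene was called when it passed edgeR's quasi-likelihood test with FDR < 1%, changed 2-fold or more, and averaged 100 or more normalized counts across the libraries compared. *HOXB13* differed between 36h and t0 by a fitted log2 fold change of 7.66, with an adjusted p of 0.11 (edgeR), and between P3 and 36h by -4.98, also with an adjusted p of 0.11. The mean of the 36h libraries was at least 8.54-fold above the t0 floor. No member was called higher at 36h than at t0, against 1.32% of all genes tested, and none lower at P3 than at 36h, against 4.02%. With group means of at most 23.87 normalized counts, no member could reach the required mean of 100 here. With no minimum mean, 0 members were called in either comparison, where 409 genes were called higher and 1487 lower in all. In each of these comparisons 1 of the 6 had an unadjusted p under 0.05, against 26.1% and 39.7% of all genes in either direction, and DESeq2 called 0. The early *HOXB13* signal lies near the lower limit of the depth.

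The onset was placed at the first passage from which every later whole-culture library of the same differentiation held at least 1 TPM. In r2 all 6 genes came on together at P4. In r3, *HOXA13*, *HOXC12*, *HOXC13*, *HOXD12* and *HOXD13* came on at P5 and *HOXB13* at P6. In r1, *HOXC13* and *HOXD13* came on at P5, *HOXA13*, *HOXC12* and *HOXD12* at P6, and *HOXB13* at P7. The mean passage of onset was 4.67 ± 0.58 (SD, n = 3 differentiations) for *HOXC13* and *HOXD13*, 5 ± 1 for *HOXA13*, *HOXC12* and *HOXD12*, and 5.67 ± 1.53 for *HOXB13*. *HOXB13* was thus last in the 2 differentiations in which the onsets were spread over more than 1 passage. The means of neighboring genes in this order differ by less than the spread between differentiations. Within the HOXC and HOXD clusters, the group 13 gene was never later than the group 12 gene beside it, and in r1 it was 1 passage ahead in both. This order depends on the measure: at 100 normalized counts *HOXC13* also came on at P6 in r1, and by interpolation both group 12 genes crossed 1 TPM before their group 13 neighbors in r3. For the HOXC genes the r3 crossings were close, at passages 4.45 and 4.51. The r3 crossings start from the shallow P4 r3 library, with 8 counts of *HOXC12*, 7 of *HOXC13*, 8 of *HOXD12* and 10 of *HOXD13*. The order within r3 is therefore uncertain. At 10 TPM *HOXC12* was ahead of *HOXC13* in all 3 differentiations, by the least in r2 (passages 3.788 and 3.894). *HOXD12* was ahead of *HOXD13* in r3, behind it in r2, and level with it in r1 (passages 5.797 and 5.802). With onset placed at 10% of the highest TPM, *HOXD13* came on at P8, P6 and P6 in r1 to r3 and *HOXD12* at P6, P4 and P5.

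**Figure D2:**
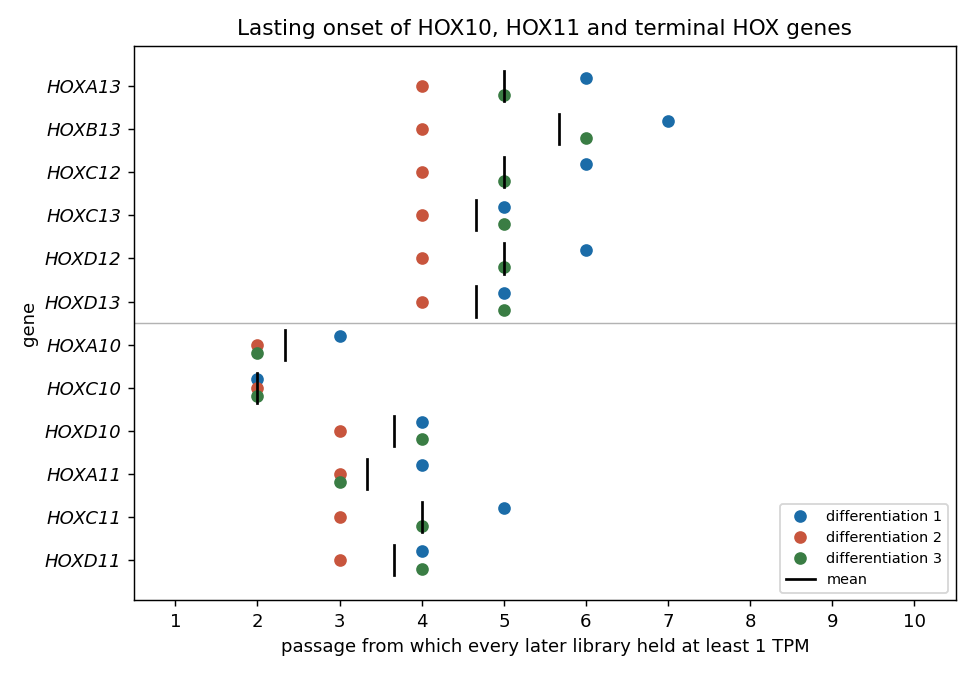
Passage of lasting onset (x axis) for the 6 HOX10 and HOX11 genes of clusters A, C and D and the 6 terminal genes (y axis), with 1 point per differentiation and a bar at the mean. Means run from 2 to 4 for the HOX10 and HOX11 genes and from 4.67 to 5.67 for the terminal genes, and differentiation 2 is earliest or tied for earliest for every gene.

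The passages at which a level was reached were also interpolated between successive libraries. *HOXD13* reached 1 TPM first of the 6 in r1, at passage 4.51, and in r2, at 3.23, while *HOXD12* was first in r3, at 4.08. This r3 value starts from 8 counts of *HOXD12* in P4 r3, where *HOXD13* had 10. *HOXB13* was last in all 3, at 6.72, 3.78 and 5.61. At 10 TPM the order was different. *HOXD12* reached this level first in r3, at passage 5.18. In r1 it was level with *HOXD13*, at 5.797 against 5.802, and in r2 *HOXD13* was level with *HOXC12*, at 3.784 against 3.788. *HOXA13* and *HOXB13* came last in all 3 differentiations: 8.19 and 8.20 in r1, 6.13 and 5.46 in r2, and 6.55 and 6.63 in r3. The 4 genes of the HOXC and HOXD clusters were therefore at 10 TPM before *HOXA13* and *HOXB13* in every differentiation, in r1 and r2 by more than 1 passage. *HOXA13* had crossed 1 TPM at passages 5.83, 3.40 and 4.70, ahead of *HOXB13* in each differentiation.

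The differentiations differed in timing by about as much as the genes did. From the first of the 6 genes to the last, 10 TPM was reached over 2.41 passages in r1, 2.35 in r2 and 1.45 in r3. All 6 genes reached 10 TPM first in r2, then r3, then r1. The lag of r1 behind r2 was 1.94 to 2.85 passages with a median of 2.36, and that of r3 behind r2 was 0.417 to 1.89 passages with a median of 1.45. For the HOX10 and HOX11 genes, the same lags were 0.549 to 1.61 passages (median 0.984) and 0.233 to 1.31 passages (median 0.893). Both lists share the same 3 cultures, so these lags are given as a description. *HOXC10*, the earliest of the HOX10 genes, had its lasting onset at P2 in all 3 differentiations, and *HOXC11* at P5, P3 and P4.

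The size of the first step also differed. *HOXC12* went from 11 counts at P3 in r2 to 30.4 TPM at P4, a step of 7.54 in log2(normalized count + 1), and *HOXB13* went from 0 counts to 3.72 TPM over the same passage, a step of 8.23. The steps of *HOXD12* and *HOXD13* between these 2 libraries were 7.70 and 5.90. In r3 the largest step of *HOXC12*, *HOXC13*, *HOXD12*, *HOXD13* and *HOXA13* was from P4 to P5, at 2.88 to 3.97. In r1 the largest step came between P5 and P6 for *HOXC12* (4.63) and *HOXD12* (4.22), and between P8 and P9 for *HOXA13* (5.32), *HOXB13* (2.72) and *HOXD13* (2.77). The last 3 rest on the library labelled P9 r1.

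At P5 the 3 whole cultures were therefore far apart. *HOXC12* had 0.18, 75.9 and 4.57 TPM in r1, r2 and r3. *HOXD13* had 2.54, 28.6 and 4.12 TPM, and *HOXA13* had 0.38, 5.28 and 1.41 TPM. In normalized counts, *HOXC12* averaged 2064 ± 3257 (SD, n = 3), *HOXC13* 555.1 ± 769.9, and *HOXD13* 601.0 ± 743.2. Every member was higher at P5 than at P3 in 3 of 3 differentiations, and the groups did not overlap for any gene other than *HOXA13*. Fitted log2 fold changes were from 3.38 (*HOXA13*) to 7.78 (*HOXD12*, SE 1.44), with a median of 6.43 against a median of 0.00 over all genes. None of the 6 passed at an FDR under 1% (lowest adjusted p 0.053, *HOXD12*, edgeR). This comparison called 0.0092% of all genes higher, and all 6 members had an unadjusted p under 0.05, against 7.1% of all genes in either direction. DESeq2 with the same block called 4 of them among 27 genes called higher.

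Every member was higher at P8 than at P5 in 3 of 3 differentiations. *HOXC12* reached 106.5, 165.0 and 164.3 TPM at P8, and its normalized count was 11529 ± 2956. *HOXC13* reached 42.1, 95.5 and 103.4 TPM. *HOXD13* reached 57.8, 85.9 and 52.2 TPM, and *HOXD12* 87.2, 56.1 and 35.3 TPM. *HOXA13* and *HOXB13* were at 5.04, 46.7 and 59.5 TPM and at 6.85, 44.5 and 45.1 TPM, and for both genes r1 was far below the other 2 differentiations. *HOXC12* was the most abundant of the 6 per transcript length in all 3 P8 cultures. *HOXC13* was second in r3 and in r2, and *HOXD12* in r1. Log2 fold changes of P8 against P5 ran from 2.49 (*HOXD12*) to 4.63 (*HOXB13*). None passed, with adjusted p from 0.075 to 0.25 by edgeR, against 0.0046% of all genes called higher. All 6 had an unadjusted p under 0.05, against 13.3% of all genes, and DESeq2 called 0 of them among 129 genes called higher.

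Against t0, where all members were at the floor, the difference passed the test. By edgeR, 5 of 6 members were called higher at P5, against 6.44% of all genes. At P8 it was 6 of 6, against 7.66%, and at P10 it was 6 of 6, against 9.47%. These 3 comparisons share their t0 libraries and were added after the data had been seen. *HOXB13*, the member not called at P5, had an adjusted p of 0.0043 and a mean under the required 100 normalized counts across the P5 and t0 libraries. With no minimum mean, 6 of 6 were called. Without r2, the earliest differentiation, 0 of 6 were called at P5, and without r3 it was 2 of 6. By the normalized counts of r1 and r3, no member averaged 100 over their P5 and t0 libraries. The 0 without r2 was therefore fixed by the required mean, and does not show how the test would have gone. Without P10 r1, an alternative also added after the data had been seen, 6 of 6 were called at P10. At P8, mean levels were at least 4125-fold (*HOXC12*), 1648-fold (*HOXC13*), 1496-fold (*HOXA13*), 1234-fold (*HOXD13*), 957.3-fold (*HOXB13*) and 625.4-fold (*HOXD12*) higher than the t0 floor. All 6 genes entered the test through the libraries in which they were high. Of the HOX10 and HOX11 genes, 6 of 6 were called higher in each of these comparisons, and 5 of 6 at P10 without P10 r1.

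As a share of the TPM of all 39 HOX genes, the 6 members made up 2.53% in r1, 12.2% in r2 and 12.7% in r3 at P7, and 7.48%, 18.6% and 20.5% at P8. At P10 they made up 14.7%, 55.7% and 45.8%. The summed TPM of all HOX genes was lower at P10 than at P8 in each differentiation, and was 3912, 1352 and 941 TPM in r1 to r3.

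At P9 and P10 the make-up of the terminal transcripts changed. *HOXA13* had 195.2 and 74.2 TPM at P9 (r1 and r2) and 40.7, 127.4 and 150.3 TPM at P10. *HOXD13* had 383 and 165.9 TPM at P9 and 105.8, 412.4 and 142.7 TPM at P10. *HOXC12* went the other way in r2, from 165.0 TPM at P8 to 89.1 at P9 and 43.0 at P10, and in r3, from 164.3 TPM at P8 to 37.5 at P10. *HOXC13* in r2 went from 95.5 to 72.3 to 36.4 TPM, and in r3 from 103.4 to 34.2 TPM. In r1, *HOXC12* went from 106.5 TPM at P8 to 76.3 at P9, while *HOXC13* rose from 42.1 to 66.8 TPM. The library labelled P10 had the highest *HOXC12* and *HOXC13* levels of that differentiation, at 215.1 and 107.7 TPM. *HOXB13* stayed between 27.4 and 45.1 TPM in all P8, P9 and P10 cultures other than P8 r1.

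In terms of share, *HOXA13* and *HOXD13* together held 20.6%, 26.9% and 24.3% of the members' TPM in the 3 P8 cultures. In P9 r1, P9 r2, P10 r2 and P10 r3 they held 67.2%, 50.04%, 71.6% and 67.9%, and in P10 r1 25.5%. *HOXC12* and *HOXC13* together held 48.6% to 58.2% at P8, and 16.6%, 33.7%, 10.53% and 16.6% in the same 4 late libraries, against 56.2% in P10 r1. In P9 r1 the share was lower although the TPM of *HOXC13* was higher than in P8 r1. *HOXD13* was the most abundant member in P9 r1, P9 r2 and P10 r2 and *HOXA13* in P10 r3, whereas *HOXC12* was the most abundant in P10 r1.

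**Figure D3:**
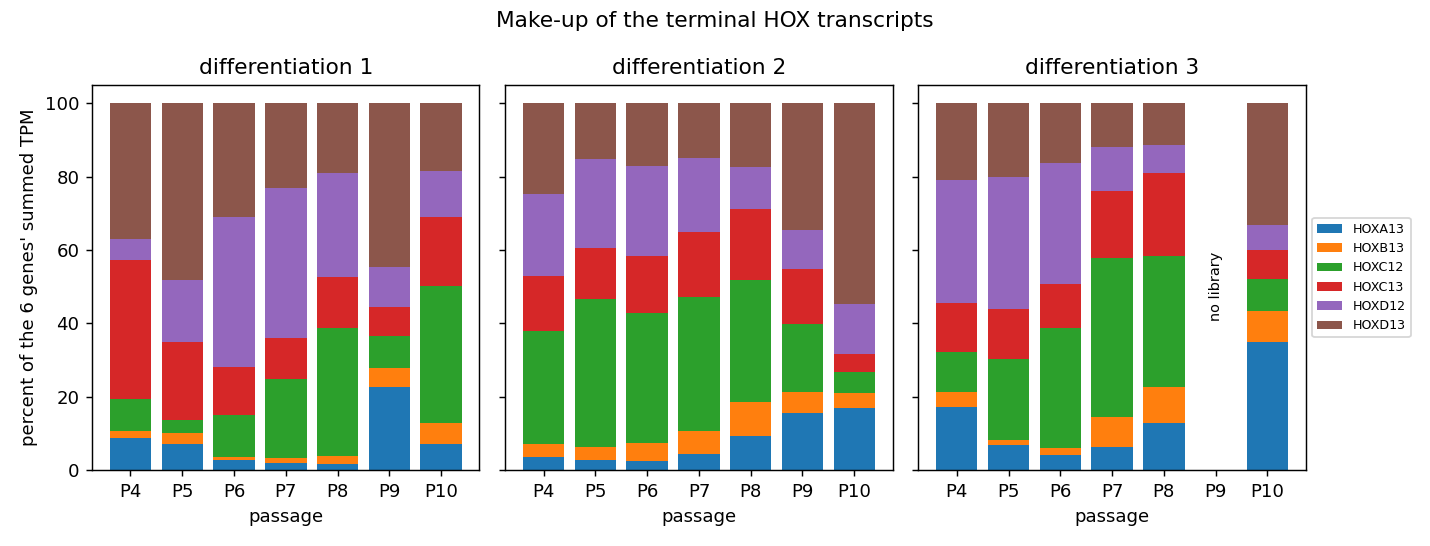
Share of each terminal HOX gene (y axis, percent of the summed TPM of the 6 genes) in the whole cultures from P4 to P10 (x axis), 1 panel per differentiation. HOXC12 held 33.4% to 35.7% at P8, and HOXA13 with HOXD13 held at least 50.04% in every P9 and P10 culture other than P10 of differentiation 1.

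The same libraries stood apart in genes of the progenitor state. *LIN28A*, an RNA-binding protein of early progenitors that blocks let-7 maturation, was at 681.3, 143.7 and 70.9 TPM at P8 and at 1.04, 0.70, 0.89 and 0.38 TPM in P9 r1, P9 r2, P10 r2 and P10 r3, against 238.9 TPM in P10 r1. *CDX2*, a caudal homeodomain factor, was at 1.24 to 7.29 TPM in those 4 libraries and at 193.1 TPM in P10 r1. *SOX2* was at 0.50 to 5.98 TPM in the 4 and at 214.1 TPM in P10 r1. The 10 neural crest and mesenchymal genes summed to 263.2 to 1016 TPM at P8, 1281 to 1331 TPM at P9 and 385.9 to 1191 TPM at P10, and 2 of the 10 were called higher at P9 than at P8. Their median log2 fold change against P8 was 0.78 at P9 and -0.30 at P10. *SOX10*, 1 of the 10, was at 0.78 to 15.2 TPM at P8, 0.84 to 0.92 TPM at P9 and 0.17 to 0.76 TPM at P10. The sum therefore does not describe each gene of the list. The 7 limb and lateral plate genes summed to 231.8 to 308.1 TPM at P8 and 420.5 to 494.9 TPM at P9, with 1 of the 7 called. In that comparison 0.887% of all genes were called higher, and without P9 r1 none of either list was. The part of a change of cell state in the *HOXA13* and *HOXD13* levels was not tested, and in bulk libraries more cells expressing a gene and more RNA per cell cannot be told apart.

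By edgeR, *HOXA13* was higher at P9 than at P8 by 3.25 on the log2 scale (SE 1.14, adjusted p = 0.070) and *HOXD13* by 2.21 (SE 0.95, adjusted p = 0.14), in 2 of 2 differentiations each. No member was called higher, against 0.887% of all genes. For P10 against P8, *HOXA13* differed by 1.78 (SE 0.95, adjusted p = 0.36) and *HOXD13* by 1.55 (SE 0.84, adjusted p = 0.37), in 3 of 3 differentiations, with 0 of 6 called against 0.0874% of all genes. Unadjusted p was under 0.05 for 2 of 6 members at P9 and 0 of 6 at P10, against 26.3% and 16.4% of all genes, and DESeq2 called 0 in both, where it called 466 and 242 genes higher in all. Without r1, whose P9 library stood apart, the *HOXA13* difference at P9 was -0.06. That of *HOXD13* was 0.35. Without the P9 r1 library alone, an alternative chosen after seeing the data, they were 0.26 and 0.08, with adjusted p of 0.95 and 1 (edgeR). These fits have the single P9 culture of r2, which is assumed to vary like the other groups. Within r2, normalized counts rose from 5333 at P8 to 8211 at P9 for *HOXA13* and from 4699 to 9021 for *HOXD13*. The fitted differences also depend on the P8 libraries of other differentiations and on the replicate block over the whole course. They are thus not the change within r2. Without P10 r1, the P10 differences were 1.76 for *HOXA13* and 1.76 for *HOXD13*, with adjusted p of 0.26 and 0.22.

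In the fractions at P5, all 6 genes had lower normalized counts in MES than in EPI in 3 of 3 differentiations. *HOXC12* had 18.2, 5984 and 636.6 in EPI of r1, r2 and r3 and 12.7, 3060 and 149.8 in MES. *HOXD13* had 159.8, 1494 and 356.5 in EPI and 75.2, 715.3 and 65.2 in MES. As a log2 ratio of MES to EPI, the difference was widest in r3 for each of the 6 genes, for *HOXB13* by a small margin (-1.051 against -1.046 in r1). For each gene, the lowest and highest differentiation within a fraction were further apart, as a ratio, than the fractions of any 1 differentiation. This does not hold for every pair of differentiations: *HOXD13* in MES was closer between r1 and r3 than either was to its EPI fraction. Fitted log2 differences of MES against EPI ran from -1.62 (*HOXD12*, SE 1.03) to -0.76 (*HOXB13*, SE 0.77), with a median of -1.08. *HOXD13* differed by -1.33 (SE 0.58, adjusted p = 0.19). None passed by edgeR, and 0% of all 18885 genes were called lower at these thresholds. Of the members, 1 of 6 had an unadjusted p under 0.05, against 25.9% of all genes. DESeq2 called 0 members and 323 genes lower and 355 higher, so that the 0% holds for edgeR at these thresholds. The epithelial marker *SOX2* was lower in MES by 1.80 ± 0.52 on the log2 scale and the crest marker *SOX10* higher by 3.06 ± 0.30 (mean of within-differentiation log2 ratios ± SD, n = 3). How much of the difference in the HOX genes follows the share of epithelial cells was not tested.

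At P8, *HOXA13* had 519.6, 5445 and 6721 normalized counts in EPI and 906.5, 7810 and 6883 in MES, and was higher in MES in 3 of 3 differentiations. *HOXC12*, *HOXC13*, *HOXD12* and *HOXD13* were lower in MES in 3 of 3, and *HOXB13* in 2 of 3. The within-differentiation log2 ratio of MES to EPI was 0.45 ± 0.39 (SD, n = 3) for *HOXA13*, against -1.18 ± 0.88 at P5. It was -0.68 ± 0.40 for *HOXC13* and -0.57 ± 0.47 for *HOXD13*. By edgeR, the *HOXA13* difference at P8 was 0.39 (SE 0.45, adjusted p = 0.76) and those of the other 5 ran from -0.73 to -0.39, so none passed, against 0% of all genes called lower. None of the 6 had an unadjusted p under 0.05, against 12% of all genes, and DESeq2 called 0 of them with 4 genes lower and 50 higher. The change of the *HOXA13* ratio between P5 and P8 was 1.32 on the log2 scale (SE 0.68). Its adjusted p in the test of the interaction was 0.83, with 0 of 6 members and 0% of all genes called higher. No member had an unadjusted p under 0.05 in this test, against 6.1% of all genes, and DESeq2 again called 0.

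**Figure D4:**
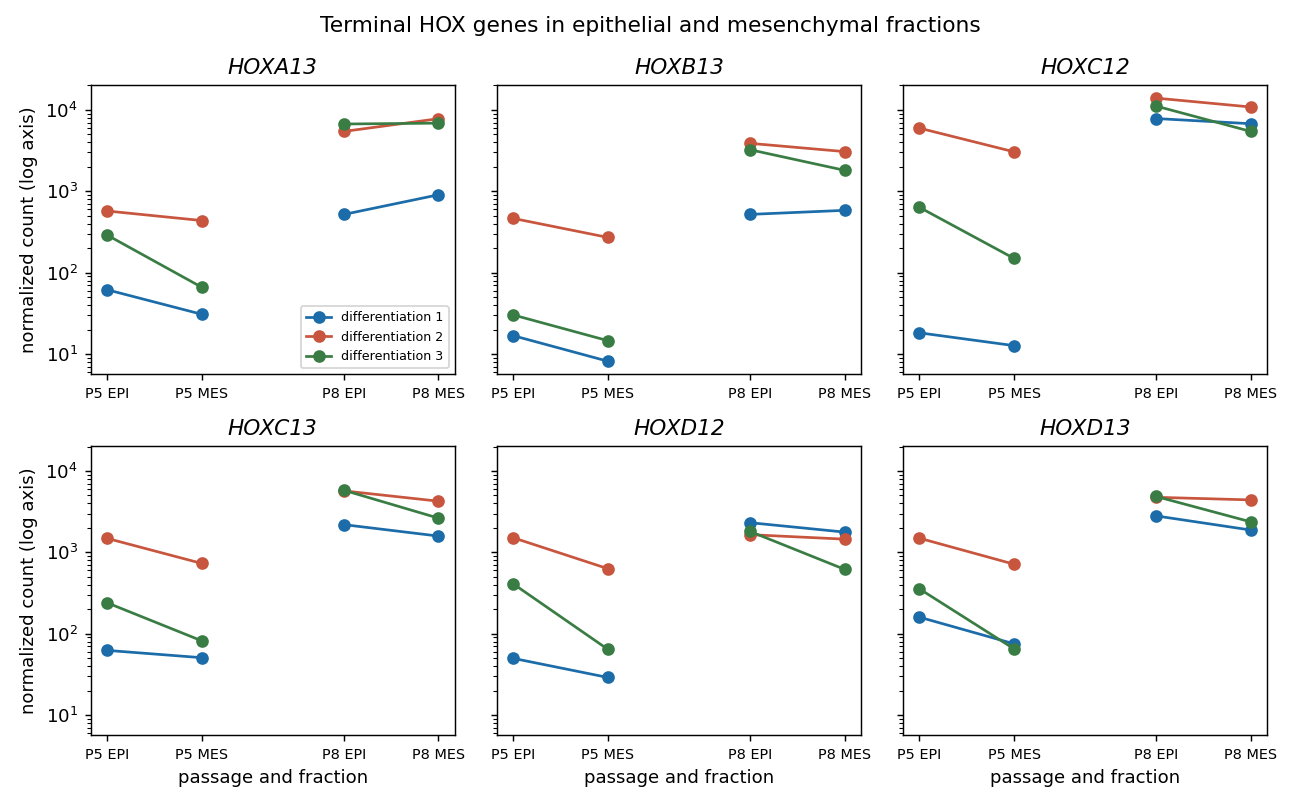
Normalized counts (log y axis) of the terminal HOX genes in the EPI and MES fractions of P5 and P8 (x axis), with a line joining the fractions of 1 differentiation. Lines fall from EPI to MES for all 6 genes at P5 and rise for HOXA13 at P8, and on the log axis the spread between differentiations is wider at P5 than at P8 in each fraction for every gene other than HOXA13 in EPI.

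Within each fraction, all 6 genes were higher at P8 than at P5 in 3 of 3 differentiations. In MES, *HOXA13* rose from 30.8, 437.2 and 66.1 to 906.5, 7810 and 6883 normalized counts, and the groups did not overlap. The log2 fold change of 5.04 (SE 0.55) had an adjusted p of 0.0056 by edgeR, and it was the only member called, 1 of 6, against 0.582% of all genes. The other 5 had log2 fold changes from 3.26 (*HOXD12*) to 5.16 (*HOXB13*), with adjusted p from 0.012 to 0.094, and DESeq2 called 5 of the 6 among 593 genes called higher. Without the replicate block, and without any 1 of the differentiations, 0 were called. Over all genes, 1 was called higher without the block, 165 without r1, 0 without r2 and 0 without r3, against 110 in the main fit. In EPI the log2 fold changes were from 2.35 (*HOXD12*) to 4.79 (*HOXB13*, SE 0.81). The lowest adjusted p was 0.012, for *HOXA13* (log2 fold change 3.72, SE 0.51), so 0 of 6 passed the FDR of 1%, against 0.228% of all genes. DESeq2 called 4 of 6 among 446 genes called higher, and 5 of 6 had an unadjusted p under 0.05, against 31.3% of all genes. Medians were 4.49 in MES and 3.79 in EPI, beside 0.00 and 0.01 over all genes.

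The order of the levels within a library was similar, but not the same, in the fractions and their whole cultures. In r2 at P5, *HOXC12*, *HOXD12*, *HOXD13* and *HOXC13* followed in that order in whole culture, EPI and MES. In r3 at P5 *HOXD12* led in all 3, and at P8 *HOXC12* led in the whole culture and both fractions of each differentiation. The order below differed: in r3 at P8, *HOXC13* was second in the whole culture and in EPI, and *HOXA13* was second in MES. In r1 at P5, *HOXC13* was above *HOXD12* in the whole culture and below it in both fractions. *HOXA13* was above *HOXB13* in all 6 MES libraries, and in the whole cultures and EPI of r1 and r3 at P5 and of r2 and r3 at P8. In r2 at P5 and r1 at P8 *HOXB13* was above *HOXA13* in the whole culture and in EPI, in r1 at P8 with 6.85 and 6.44 TPM against 5.04 and 4.61.

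Over the 47 libraries, the 6 genes followed each other with Pearson's r of 0.886 (*HOXB13* and *HOXD12*) to 0.981 (*HOXC12* and *HOXC13*) on log2(normalized count + 1). These libraries share 3 cultures and the common absence of the genes in early samples, so the values describe the shape of the course only. Among all genes averaging 100 or more normalized counts, the 3 most like each member outside groups 12 and 13 included transcripts beside several of them. *HOXA13* was most like *HOTTIP* (r = 0.946), which overlaps it, then *MBTPS1* (0.936) and *BMP7* (0.935). *HOXB13* was most like *PRAC1* (0.955) and *PRAC2* (0.953), its neighbors on chromosome 17. *HOXC12*, *HOXC13*, *HOXD12* and *HOXD13* were all most like *HOXC13-AS*, with r of 0.986, 0.983, 0.977 and 0.960. *HOTAIR*, a noncoding transcript 3351 bases from *HOXC12*, was the second for *HOXC12* (0.937) and the third for *HOXD12* (0.956). AC126773.2, an antisense transcript on chromosome 16, was second for *HOXC13* (0.967), *HOXD12* (0.961) and *HOXD13* (0.949). *GDF11*, a TGF-beta family ligand known to drive the trunk-to-tail transition, gave r of 0.631 (*HOXB13*) to 0.822 (*HOXC13*), *CDX2* 0.086 to 0.172, and *LIN28A* -0.66 (*HOXA13*) to -0.443 (*HOXD12*).

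The transcripts beside the members were also followed at the late passages. *HOTTIP*, beside *HOXA13*, had 0.73, 15.5 and 17.6 TPM at P8, 53.1 and 31.6 TPM at P9 and 9.07, 54.2 and 59.5 TPM at P10. *EVX2*, a homeobox gene beyond *HOXD13*, had 0.17, 4.57 and 2.97 TPM at P8 52.9 and 10.6 TPM at P9, and 5.05, 26.5 and 8.3 TPM at P10. Its log2 fold change of 5.45 at P9 (adjusted p = 0.0046, edgeR) made it the 1 of 7 neighboring transcripts called there, against 0.887% of all genes. That call rests on P9 r1, since without that library the log2 fold change was 1.46 (adjusted p = 0.38). The call was also lost without the replicate block, without P8 r1, without r3 and with only the compared groups in the fit. Over all genes, these settings called 11, 4, 0 and 0 genes higher, against 193 in the main fit. *HOXC13-AS* had 8.59, 12.1 and 7.91 TPM at P8 and 13.5, 4.66 and 4.51 TPM at P10, and so was lower in r2 and r3 with *HOXC12* and *HOXC13*. *HOTTIP* (6.12, adjusted p = 0.0065) and *EVX2* (6.49, adjusted p = 0.0097) were the 2 of 7 called higher in P8 MES than P5 MES, against 0.582% of all genes. Both calls were lost without the replicate block, without r2, without r3 and with only the compared groups in the fit, and that of *HOTTIP* also without r1. Over all genes, 1 was called higher without the block, 165 without r1, and 0 without r2, without r3 and with only the compared groups.

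*GDF11* was higher at passages before the terminal genes came on. It was at 12.2 to 14.6 TPM at t0 and 43.5 to 49.7 TPM at P3, when all 6 members were still under 1 TPM, and at 110.3 TPM in P4 of r2 against 58.4 and 49.2 TPM in r1 and r3. Its log2 fold change of P5 against t0 was 2.67 (SE 0.28, adjusted p = 1e-07, edgeR). *LIN28A*, at 320.8 to 791.6 TPM at P3, was still at 402.3 to 779.7 TPM at P4, so that the terminal genes of r2 came on while it was high. Against t0, 7.8% of all genes were called lower at P5, 7.67% at P8 and 8.74% at P10, beside the 6.44%, 7.66% and 9.47% called higher. Of the 11 genes listed for the trunk-to-tail transition, 10 were tested. Of these, 2 were called higher and 0 lower at P5, 2 higher and 2 lower at P8, and 3 higher and 3 lower at P10, where it was 2 higher and 3 lower without P10 r1. Of the 7 limb and lateral plate genes, 1 was called higher than at t0 at P5, 2 at P8 and 1 at P10, and also 1 at P10 without P10 r1. Their summed level was 209.6 to 312.1 TPM at P5 and 261.0 to 544.7 TPM at P10. The 9 TALE cofactors, homeodomain partners of HOX proteins of the MEIS, PBX and PKNOX families, had 2 called higher and 2 lower than at t0 at P5, and 0 higher and 2 lower at both P8 and P10. Without P10 r1 it was 0 and 3 at P10.

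The TPM of *HOXA13* and *HOXD12* carries an uncertainty of its own. The effective length that divides their counts varied between libraries, from 2102 to 4956 bases for *HOXA13* and from 766.8 to 1243.9 for *HOXD12*, while those of the other 4 members varied by less than 1 base. The shortest *HOXA13* length was in P4 r3, where 0.44 TPM stands for 22.0 normalized counts. With onset placed at 100 normalized counts, the mean passage was 5 ± 1 (n = 3) for both *HOXA13* and *HOXD12*, as with 1 TPM.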

How the data were processed

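RNA was sequenced as polyA-selected, single-end libraries. Per the submitters' processing notes, cutadapt 1.16, STAR 2.5.2b, RSEM 1.3.0 and GRCh38 were used. The annotation release and the strand setting are not given in the sources used here. The deposited values are the authors' RSEM expected counts, of which 9.33% were not whole, and TPM, which the authors' RSEM scaled by effective length and library. Symbols for 57447 genes and all coordinates came from GENCODE 29.

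Expected counts were rounded. Normalized counts are these counts divided by edgeR TMM size factors over the 47 libraries, whose geometric mean was set to 1. The tests were made with edgeR 4.0.16 in R 4.3.3 (quasi-likelihood F-test, filterByExpr, Benjamini-Hochberg), in 1 fit of the 35 whole cultures and 1 of the 12 fraction libraries, with the replicate number as a block. Adjusted p-values are over all genes tested, and the SE is the log2 fold change divided by the square root of F. DESeq2 1.42.0 was an alternative. A gene was called with FDR < 0.01 if it also changed 2-fold or more and averaged 100 or more normalized counts. These thresholds are those of the study, but the mean here is over the libraries compared and not DESeq2's base mean. The pairing comes from the series' design, in which each numbered experiment was followed through the time course (P9 of r3 was not analysed here). Over 13293 genes, deviations of same-numbered libraries correlated by a mean of 0.649 between the P5 fractions, 0.777 between the P8 fractions, 0.273 to 0.361 between passages of a fraction, and 0.185, 0.307 and 0.243 for P5 against P3, P8 against P5 and P10 against P8. For P8 against t0 the mean was 0.112, and for the other whole-culture comparisons it was -0.018 to 0.01. Onsets have no test. Interpolation was linear in log2(TPM + 0.01) between successive passages. Reads had no molecular identifiers, so the floor of 3 counts covers counting error only. No pair of libraries differed by as little as counting noise (lowest chi-square per degree of freedom 10.6). Code was tested on simulated data. Whether the replicates are separate cultures comes from the design text.

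The 6 genes, the lists set beside them and the tests were chosen with earlier results of these data known. Named genes are the 6 members, *GDF11*, *LIN28A*, *CDX2*, *SOX2*, *SOX10*, the genes next to the members, the HOX10 and HOX11 genes, markers of other cell types and, for each member, the 3 genes outside groups 12 and 13 with the highest Pearson's r. Counts of a list were kept as descriptions, with no test of the list. The alternatives were no block, DESeq2 and its size factors, other count filters, other thresholds, only the compared groups in a fit, each differentiation left out, and other levels of onset.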

Additional observations from a re-analysis of the deposited data

How the results depend on the processing

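In most comparisons the main number of members called was 0, so that no ratio to it can be given. It stayed 0 there under most settings, which does not show that the results are stable. In the earliest comparisons, up to P3, no member could reach the required mean, which fixed the 0 wherever that mean applied. For P8 and P10 against t0, 6 members were called under every setting that gave a value. With DESeq2 and the same block, 4 members were called for P5 against P3, 4 for P8 EPI against P5 EPI and 5 for P8 MES against P5 MES, where edgeR called 0, 0 and 1. An FDR under 0.05 gave 4 and 4 in the 2 fraction comparisons, and no count filter gave 2 and 4. The calls over all genes grew with them, from 43 and 110 higher to 371 and 480 at the FDR under 0.05 and to 131 and 217 with no count filter. Without the replicate block 0 were called for P8 MES against P5 MES, and in no other comparison did it change the number of members called. With only the compared groups in the fit, 0 were called for P8 MES against P5 MES too. Over all genes, 1 was called higher there without the block and 0 with only the compared groups. Leaving out 1 differentiation gave 0 there, and 0 to 6 for P5 against t0, where it was 0 without r2 and 2 without r3. The 0 without r2 was fixed by the required mean, which no member reached over the P5 and t0 libraries of r1 and r3. That 0 does not show how the test would have gone. For *HOXA13* at P9 against P8, leaving out 1 differentiation gave -0.06 to 4.07 on the log2 scale (-0.0572 without r1). Without P8 r1, an alternative chosen after seeing the data, it was 2.64, and no member was called.

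The mean passage of lasting onset at 5 TPM was 6.67 for *HOXA13* and 5.33 for *HOXC13* and *HOXD13*. At 10% of the highest TPM it was 7.67, 5.67 and 6.67 for these genes. *HOXB13* was at 6.67 under both, level with *HOXA13* at 5 TPM and ahead of it at 10% of the highest TPM. Its last place therefore depends on the level chosen. The first passage at the threshold, whether or not it lasted, and 0.5 TPM gave means within 1 SD of the main value for all 6.

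At least 10 counts in every library left no member in the whole-culture fit, so that setting gave no value there. With only the compared groups in the fit, no member passed the count filter for 36h against t0 and P3 against 36h. Depth limits the levels before P4, where no member had more than 50 counts in a whole culture. The 3 differentiations were out of step in timing, which the comparisons by passage do not adjust for.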
